A study of Saccharomyces x bayanus with 4 samples.

Results

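Blocks c578 and c626 are 2 sets of genes of the yeast Saccharomyces bayanus whose array identifiers carry the same assembly label, c578 or c626, followed by a running gene number. They held 40 of the 5482 genes on the array, 21 in block c578 and 19 in block c626. Gene numbers ran from 1 to 22 in block c578, with number 12 not among the names on the array, and from 1 to 19 in block c626. Both blocks were chosen by measured values, namely their low ratio of RNA to genomic DNA on these same arrays, so that ratio and its 2 channels are given as a description. A fit across all genes on the same ratio is reported last, and nothing about the blocks is read from it. Each of the 4 arrays compared Cy3-labelled total RNA with Cy5-labelled genomic DNA. Both came from strain NRRL Y-11845, and the labels name no genetic change or treatment. The RNA was taken in mid-log growth from a rich medium, and the genomic DNA was sheared before labelling. The labels gave 1 group of 4 RNA samples, which the methods call biological replicates, and all 4 arrays lay on 1 slide.

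A hybridisation of RNA against genomic DNA places genes on a common scale, because most genes offer the DNA channel the same number of copies and differences between probes in binding are shared by both channels. A low ratio then means little RNA for the gene dose. Where near-identical gene copies exist, as in many families of yeast genes, a probe collects signal from all of them in both channels, and the copies cannot be told apart. The files pair no identifier with a gene name or function, so members are given by identifier, and nothing is said about what they encode or where on a chromosome they lie.

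Values are log2 ratios of background-subtracted Cy3 over Cy5, taken as the median of a gene's 2 probes and set relative to the median gene of each array. A value of 0 is the ratio of the median gene, and an error is the SD over the 4 arrays. On this scale the low level that the blocks were picked for held for most of block c626 but not for most of block c578. The median gene of block c626 lay at -2.33, -2.02, -2.07 and -2.61 on replicates 1 to 4, a mean of -2.26 ± 0.27. Among the 164 blocks with 10 or more genes it had the lowest median, and the next lowest was -1.09. The median gene of block c578 lay at -0.54, -0.72, -0.59 and -0.53, a mean of -0.59 ± 0.08, which ranked 17 from the bottom. Its mean over genes, -1.31 ± 0.08, ranked 2 from the bottom, whereas 14 of its 21 genes differed from the median gene by less than 1 log2 unit. This was so for 49.5% of all genes. Without its 4 genes below -4, in a comparison chosen after seeing the data, the mean of block c578 was -0.23 ± 0.08 and its median -0.46 ± 0.06. Block c678, with 169 genes, had a median of 0.18 ± 0.04.

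These levels depended on whether the trend of the ratio with signal strength was kept within an array. Across the genes of blocks c578 and c626 the ratio had correlations of 0.93 and 0.96 with the RNA signal. The ratio contains that signal, so high values are largely built in and do not show what a fit removes. Removing a trend with signal strength can take out differences in RNA as well as any between the dyes. Their parts were not tested. After a loess fit, which removes from each array the trend of the ratio with signal strength, the median of block c626 was -0.41 and ranked 13, and that of block c578 was -0.39. Genes 2, 6, 7, 16 and 17 of block c626 then stood at -0.78, -0.54, -0.37, -0.34 and -0.20, whereas its genes 4 and 5 stood at -4.46 and -3.02. With the processed signals of the scanner software, which include a dye fit of that kind, the medians were -1.24 and -0.35, and block c626 again ranked 1. Under the other alternatives run block c626 also ranked 1.

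**Figure D1:**
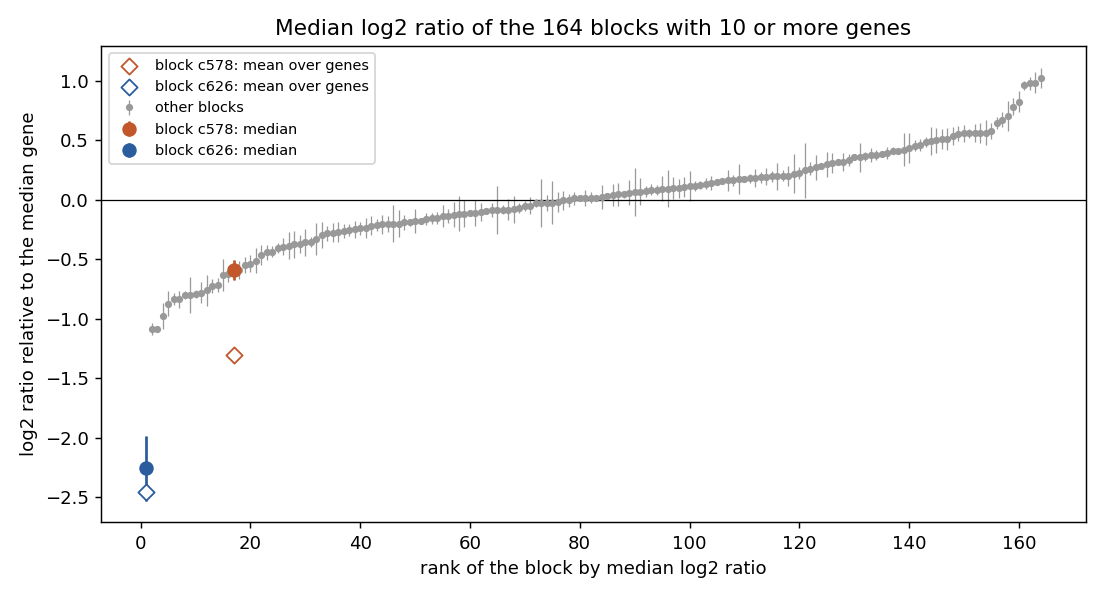
Median log2 ratio of each block with 10 or more genes, ordered by rank on the horizontal axis, with the log2 ratio relative to the median gene on the vertical axis; filled points are means over 4 arrays, bars are SDs over arrays and open diamonds are means over the genes of the block. Block c626 stands at -2.26, below the next block at -1.09, while block c578 lies at -0.59 by its median and at -1.31 by its mean.

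The 4 lowest genes of block c578 formed 2 adjacent pairs, genes 1 and 2 at its start and genes 15 and 16 further in. The ratio of sbay_c578-g1.1 was -5.89, -6.04, -6.10 and -6.28 on replicates 1 to 4, a mean of -6.08 ± 0.16, 67.6-fold below the median gene, and -2.71 after the loess fit. That of sbay_c578-g16.1 was -5.88, -5.94, -6.16 and -6.26, a mean of -6.06 ± 0.18. On the whole array only 3 genes were lower than gene 1, and gene 16 came next after it. For sbay_c578-g2.1 the values were -5.50, -5.67, -5.89 and -6.08, a mean of -5.78 ± 0.26. For sbay_c578-g15.1 they were -5.60, -5.75, -6.14 and -5.48, a mean of -5.74 ± 0.28. The 4 genes overlapped each other on the arrays, and none came within 3 log2 units of any other gene of block c578.

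Their RNA signal was close to the floor of the arrays. Gene 1 gave 67.4, 66.3, 69.9 and 53.7 scanner units in Cy3, whereas the median gene gave 2477 to 3167. Gene 2 gave 134, 122, 110 and 71.9 units, and gene 15 gave 120, 107, 92.3 and 105. Gene 16 gave 105, 100.5, 98.1 and 71.5 units. The 77 negative control spots of an array, which should bind nothing, had Cy3 medians of 10 to 14.5 units and maxima of 88 to 309.5. The genes thus stood above the middle of the negative spots on every array, but gene 1 passed the brightest of them on 0 arrays, gene 2 on 2, and genes 15 and 16 on 1 each. The 95th percentile of the negative spots was passed by gene 1 on 2 arrays, by genes 2 and 16 on 3 and by gene 15 on 4. By the call of the scanner software, both probes of genes 2 and 16 stood well above the Cy3 background on each of the 4 arrays, and those of genes 1 and 15 on 3. The genomic DNA channel was not low for any of them: relative to the median gene, log2 Cy5 was 0.55 ± 0.08 for gene 1, 0.99 ± 0.08 for gene 2, 0.93 ± 0.08 for gene 15 and 1.06 ± 0.03 for gene 16.

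These 4 genes were not 4 separate measurements, because their probes matched each other across the pairs. Genes 2 and 15 shared 1 whole probe of 55 nucleotides, and their other probes agreed at 53 of 55 positions. Genes 1 and 16 had no identical probe, but their probes agreed at 53 of 55 positions and at 48 of 51, with longest identical stretches of 27 and 30 nucleotides. All matches were on the same strand. The order was mirrored, so that the first gene of one pair matched the second gene of the other. On the same array gene 2 differed from gene 15 by -0.04 ± 0.38 in log2 ratio, with replicate 4 apart from the others at -0.60 against 0.08 to 0.25. Gene 1 differed from gene 16 by -0.02 ± 0.07 in log2 ratio, but by -0.52 ± 0.10 in log2 Cy5 and -0.53 ± 0.10 in log2 Cy3. The difference in Cy5 is an average of unlike probes: the first probes differed by -0.11 in log2 Cy5 and -0.54 in log2 Cy3, and the second probes by -0.92 and -0.53.

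**Figure D2:**
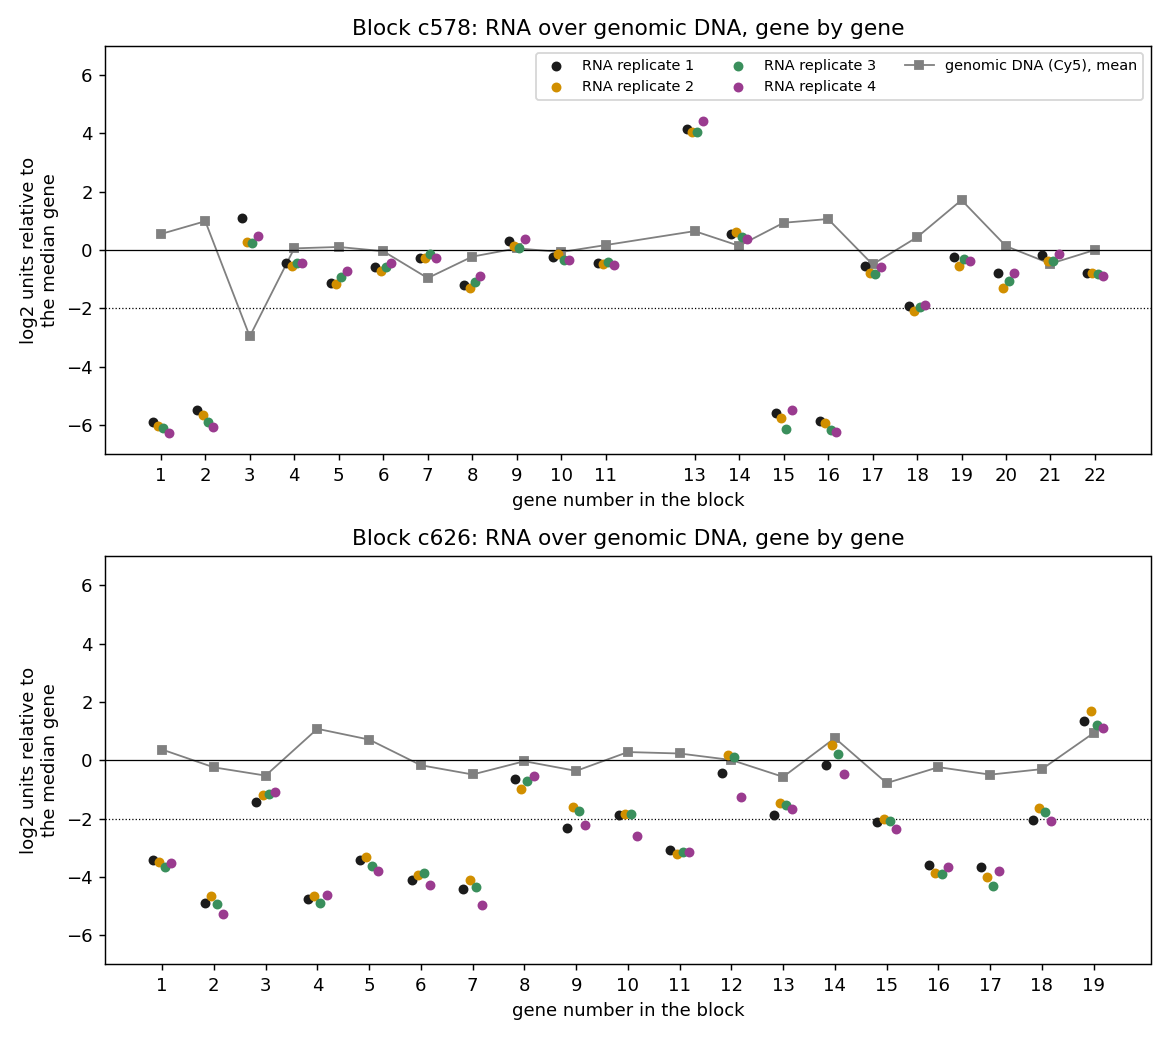
Log2 ratio of RNA over genomic DNA (coloured points, 1 for each RNA replicate) and mean log2 genomic DNA signal (grey squares joined by a line), both relative to the median gene, against the gene number in block c578 (top) and block c626 (bottom); the dotted line marks -2. In block c578 genes 1, 2, 15 and 16 lie below -5 gene 13 lies at 4.17, gene 18 at -1.96 and gene 8 at -1.13, and the means of the others lie between -1 and 1, whereas 11 of the 19 genes of block c626 lie below the dotted line.

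Between the pairs of block c578 stood its most expressed gene, sbay_c578-g13.1. Its ratio was 4.16, 4.04, 4.04 and 4.41, a mean of 4.17 ± 0.17, 17.9-fold above the median gene and rank 90 from the top of the array, but 0.92 with the processed signals and 1.15 after the loess fit. Its Cy3 signal was 84010, 79148, 82724 and 87286 units, and none of its spots was saturated. The step from gene 13 through gene 14 to gene 15 took the ratio from 4.17 to 0.51 and then to -5.74. The probes of gene 13 overlapped by 54 of their 55 nucleotides, so their agreement, 4.19 and 4.14, is close to that of a repeated spot. One of them was also identical to a probe of sbay_c523-g12.1, a gene of another block that stood at 3.86 ± 0.19, and the RNA of these genes cannot be told apart.

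A gene was counted as an expressed exception where its ratio lay above the median gene on all 4 arrays. Block c578 had 4 such genes of 21 and block c626 had 1 of 19, against a share of 45.9% over all genes. Beside gene 13, block c578 had sbay_c578-g3.1 at 1.11, 0.29, 0.24 and 0.47, sbay_c578-g14.1 at 0.56, 0.63, 0.45 and 0.39, and sbay_c578-g9.1 at 0.30, 0.15, 0.07 and 0.39. The mean ratios were 0.53 ± 0.40 for gene 3, 0.51 ± 0.11 for gene 14 and 0.23 ± 0.14 for gene 9. These 3 were near the median gene, and the range of gene 3 over the arrays overlapped those of the other two. After the loess fit, gene 13 was the only one of the 5 exceptions that stayed above the median gene on all 4 arrays, and with the processed signals genes 3, 13 and 14 of block c578 did.

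Of these 3 genes, only gene 9 had both of its probes above the median gene, at 0.37 and 0.083. In gene 14 the first probe gave 1.43 ± 0.10 and the second -0.42 ± 0.12. Gene 3 had the widest gap in both blocks: its first probe gave 2.87 ± 0.78 and its second -1.82 ± 0.06. The first probe of gene 3 had almost no genomic DNA signal, 128 units in Cy5 as a geometric mean over the arrays against 27882 for the second, and it was well above background in Cy5 on 2 of 4 arrays. Its RNA signal was also low, 187 units against 1591. The place of gene 3 above the median gene therefore came from the probe with the weaker signal in both channels, and its gene-level log2 Cy5 of -2.97 ± 0.64 came from the same probe. With the second probe alone, gene 3 and gene 14 lay below the median gene, and 3 exceptions were left in both blocks, gene 9 and gene 13 of block c578 and gene 19 of block c626.

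The remaining 13 genes of block c578 were lower than the median gene on every array. With the 4 lowest genes they made 17 of 21, against 46.2% of all genes. Of the 13, 11 had a mean ratio between -1 and 0, as had 25.4% of all genes. The highest were sbay_c578-g7.1 at -0.24 ± 0.07, sbay_c578-g21.1 at -0.27 ± 0.13 and sbay_c578-g10.1 at -0.28 ± 0.10, which overlapped each other. They were followed by sbay_c578-g19.1 at -0.38 ± 0.13, sbay_c578-g11.1 at -0.46 ± 0.06 and sbay_c578-g4.1 at -0.48 ± 0.05. Next came sbay_c578-g6.1 at -0.59 ± 0.11, sbay_c578-g17.1 at -0.68 ± 0.15 and sbay_c578-g22.1 at -0.82 ± 0.05. At the low end sbay_c578-g5.1 had -0.98 ± 0.21 and sbay_c578-g20.1 had -0.98 ± 0.25. Most neighbours in this order differed by less than their SDs. Below them were sbay_c578-g8.1 at -1.13 ± 0.18 and sbay_c578-g18.1, whose values of -1.91, -2.10, -1.95 and -1.87 gave a mean of -1.96 ± 0.10. One probe of gene 18 was identical to a probe of sbay_c456-g2.1, which had -1.83 ± 0.02.

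Block c626 had its low genes spread over its length, in 4 runs of neighbours at or below -2. They were genes 1 and 2, genes 4 to 7, genes 10 and 11, and genes 15 to 17, which together made 11 of the 19 genes. Over all genes 10.2% reached that level. Of the 18 neighbouring gene pairs of block c626 both genes were that low in 7, of the 19 pairs of block c578 in 2, and of all 5089 such pairs on the array in 2.36%. Since the blocks were picked for low ratios, more such pairs occur in them whatever the gene order, and clustering was not tested. Runs of 4 or more low genes occurred 8 times on the array, 5 of them with 4 genes, 1 with 5 and 2 with 6.

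The lowest gene of block c626 was sbay_c626-g2.1, with -4.89, -4.64, -4.93 and -5.27, a mean of -4.93 ± 0.26. Its neighbour sbay_c626-g1.1 had -3.41, -3.50, -3.68 and -3.54, a mean of -3.53 ± 0.11. The ranges of these genes did not overlap. In Cy3 gene 2 gave 78.3, 104, 94.3 and 58.9 units, a level like that of the low pairs of block c578, but its log2 Cy5 was -0.25 ± 0.04 rather than above the median gene. Its Cy3 passed the 95th percentile of the negative spots on 3 arrays and the brightest of them on 1.

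In the run of genes 4 to 7, sbay_c626-g4.1 had -4.75, -4.66, -4.91 and -4.63, a mean of -4.74 ± 0.13. The next gene, sbay_c626-g5.1, had -3.42, -3.33, -3.63 and -3.80, a mean of -3.54 ± 0.21. The third, sbay_c626-g6.1, had -4.10, -3.95, -3.86 and -4.29, a mean of -4.05 ± 0.19. The run closed with sbay_c626-g7.1 at -4.41, -4.09, -4.36 and -4.98, a mean of -4.46 ± 0.37. The Cy3 signal of gene 7, at 96.6, 128, 118 and 58.6 units, passed the brightest negative spot on 1 array, and on replicate 4 it lay under the 95th percentile of those spots, 73.2 units. Genes 6 and 7 overlapped over the arrays, whereas gene 5 lay above gene 4 on every array. Gene 4 had the brightest genomic DNA signal of block c626, a log2 Cy5 of 1.08 ± 0.07, and its Cy3 signal of 231, 244, 228 and 236 units was above that of gene 6 on every array although its ratio was lower.

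The 2 shorter runs were less low at one end. In the first, sbay_c626-g10.1 had -1.89, -1.85, -1.85 and -2.61, a mean of -2.05 ± 0.37, so that replicate 4 alone brought it past -2. Beside it sbay_c626-g11.1 had -3.09, -3.22, -3.16 and -3.16, a mean of -3.16 ± 0.05, the smallest spread of the block. In the second, sbay_c626-g15.1 had -2.12, -2.02, -2.07 and -2.37, a mean of -2.15 ± 0.16. It was followed by sbay_c626-g16.1 at -3.76 ± 0.16 and sbay_c626-g17.1 at -3.95 ± 0.28, which overlapped. In Cy3 genes 16 and 17 gave 186 and 136 units as geometric means, and gene 6 gave 159. These 3 genes and gene 4 passed the 95th percentile of the negative spots on all 4 arrays, but the brightest of them on only 2 each. Just outside the level of -2 lay sbay_c626-g9.1 at -1.97 ± 0.36, sbay_c626-g18.1 at -1.89 ± 0.23 and sbay_c626-g13.1 at -1.64 ± 0.17. Genes 9 and 18 were below -2 on replicates 1 and 4 and above it on replicates 2 and 3.

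The runs were broken by a few genes with more RNA. Gene 3, sbay_c626-g3.1, stood at -1.45, -1.18, -1.16 and -1.08, a mean of -1.22 ± 0.16, between neighbours at -4.93 and -4.74. Gene 8, sbay_c626-g8.1, stood at -0.63, -0.97, -0.71 and -0.55, a mean of -0.72 ± 0.18, after gene 7 at -4.46. The change of 3.74 log2 units from gene 7 to gene 8 was the widest between neighbours of block c626. In block c578 the widest were 6.31 from gene 2 to gene 3 and 6.25 from gene 14 to gene 15. With the second probes alone these were 4.06 and 5.39, so their order rested on the first probe of gene 3. Steps of 3 log2 units or more were not particular to the blocks. They made up 22.2% of the neighbouring pairs of block c626, 21.1% of those of block c578 and 19.2% of all pairs on the array. The ratio of genes 3, 13 and 15 of block c626 turned to 0.42, 0.43 and 0.68 after the loess fit.

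The one expressed exception of block c626 was its last gene, sbay_c626-g19.1. Its ratio was 1.33, 1.68, 1.22 and 1.11, a mean of 1.33 ± 0.25, but -1.32 after the loess fit and -0.45 with the processed signals. The Cy3 signal was 13565, 20309, 14867 and 10148 units, above the median gene on every array. Its probes gave 1.67 and 0.999, and its genomic DNA signal was high too, with a log2 Cy5 of 0.93 ± 0.09.

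A pair of genes of block c626 straddled the median gene. The ratio of sbay_c626-g14.1 was -0.16, 0.51, 0.20 and -0.47, a mean of 0.02 ± 0.43, and that of sbay_c626-g12.1 was -0.43, 0.18, 0.10 and -1.27, a mean of -0.36 ± 0.67. In both, replicates 2 and 3 were above 0 and replicates 1 and 4 below it. The level of gene 14 was an average of unlike probes, since the first gave 2.12 ± 0.70 and the second -2.08 ± 0.21. The first had 44268 units in Cy3 and 50688 in Cy5 as geometric means, and the second had 586 and 12321. The probes of gene 12 were close, at -0.23 and -0.48, so its spread over replicates was in both of them.

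**Figure D3:**
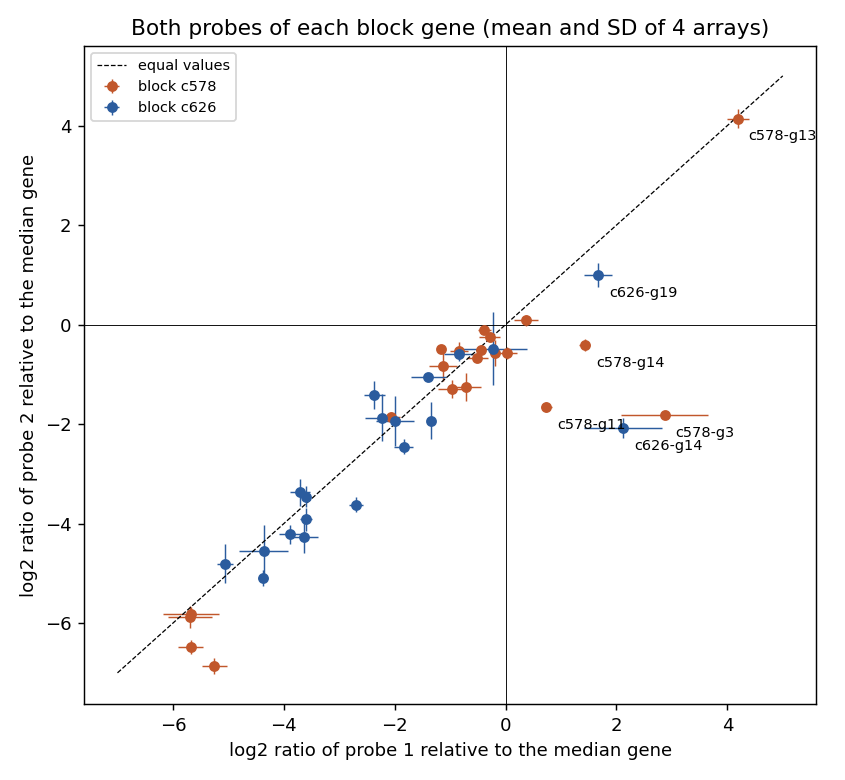
Log2 ratio of the first probe (horizontal axis) against the second probe (vertical axis) of each of the 40 genes, relative to the median gene, with bars for the SD over 4 arrays; the dashed line marks equal values. Most genes lie along the line, and gene 3 of block c578 (2.87 and -1.82), gene 14 of block c626 (2.12 and -2.08), gene 11 of block c578 and gene 14 of block c578 lie far to its right.

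Over the 2 blocks, the probes of a gene mostly agreed, but wide differences had a larger share in block c578 than over all genes. The median difference between probes was 0.32 in block c578 and 0.35 in block c626, and it was 0.28 over all genes. A difference of 1 log2 unit or more was found in 5.67% of all genes and in 10.6% of genes at or below -2. Such differences occurred in 4 genes of block c578, or 19.0%, and 1 of block c626, or 5.26%. Beside genes 3 and 14, those of block c578 were gene 11, with probes at 0.73 ± 0.10 and -1.66 ± 0.10, and gene 16, with -5.26 ± 0.22 and -6.87 ± 0.16. After gene 14, the widest differences of block c626 were 0.95 in gene 18 and 0.92 in gene 11. Both probes lay below the median gene in 15 genes of block c578 and 17 of block c626, both above it in 2 and 1, and the probes fell on opposite sides in 4 and 1.

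In the genomic DNA channel alone the blocks were close to the median gene. The median log2 Cy5 of block c578 was 0.12, 0.06, 0.08 and 0.11 on replicates 1 to 4, a mean of 0.09 ± 0.03, and it was -0.13 with the processed signals and -0.061 after the loess fit. That of block c626 was -0.21, -0.21, -0.17 and -0.09, a mean of -0.17 ± 0.06, and it was -0.76 and -1.11 under the same settings. The loess fit changes the ratio and divides that change equally between the channels, so its Cy5 values are not the DNA channel alone. The processed signals include a dye fit too, and their Cy5 values may likewise carry part of it. Less than 1 log2 unit away from the median gene were 36 of the 40 genes, or 90.0%, and 93.3% of all genes. The 4 outside were gene 19 of block c578 at 1.71 ± 0.10, gene 16 of block c578 at 1.06 ± 0.03, gene 4 of block c626 at 1.08 ± 0.07 and gene 3 of block c578 at -2.97 ± 0.64. Gene 7 of block c578, at -0.96 ± 0.04, lay just inside. Gene 19 of block c578 had the brightest genomic DNA of both blocks, and its Cy3 signal of 8166, 6993, 9139 and 5908 units was above the median gene on all arrays although its ratio was below it.

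Within a block, low ratios went with low RNA signals, and the 4 lowest genes of block c578 also had genomic DNA signals above the median gene. Across the genes of a block the ratio had a Pearson correlation with log2 Cy3 of 0.93 over 21 genes in block c578 and 0.96 over 19 in block c626, and with log2 Cy5 of -0.38 and 0.17. Genes are not independent replicates, and the ratio contains both channels. The 11 low genes of block c626 had a median log2 Cy5 of -0.17 ± 0.06, and the 543 genes elsewhere at or below -2 had 0.12 ± 0.01. The GC content of the probes of a gene had a median of 40.9% in block c578 and 42.7% in block c626.

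**Figure D4:**
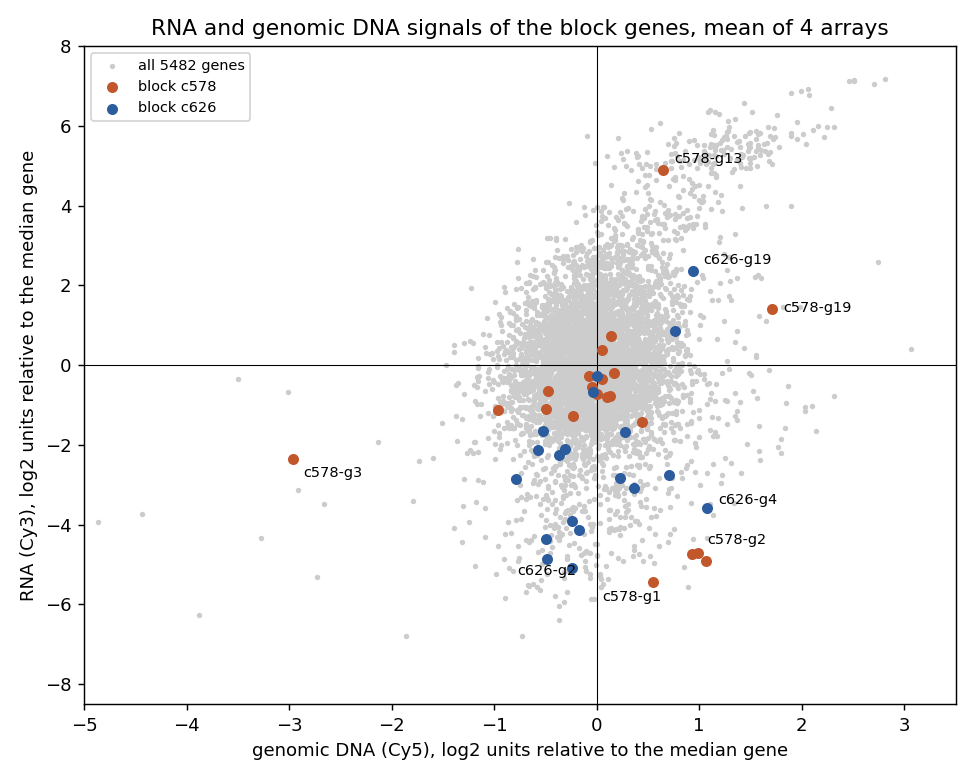
RNA signal (Cy3, vertical axis) against genomic DNA signal (Cy5, horizontal axis), each in log2 units relative to the median gene as the mean of 4 arrays, for all genes (grey), block c578 (orange) and block c626 (blue); 53 genes below -5 in Cy5 lie left of the plotted range. The low genes of block c626 fall on both sides of 0 in Cy5, genes 1, 2, 15 and 16 of block c578 sit at the lower right, and gene 3 of block c578 lies apart from the other members at -2.97.

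Some probes of the blocks shared sequence with probes of other genes. In all, 12 of the 40 genes, or 30.0%, had a stretch of 16 or more nucleotides in common with a probe of another gene, against 8.65% of all genes, and 6 genes, or 15.0%, had one of 40 or more, against 1.92%. The 6 were genes 2, 13, 15 and 18 of block c578 and genes 4 and 5 of block c626, and each held a whole probe of 55 nucleotides that another gene also had. Their median log2 Cy5 was 0.82 ± 0.04, whereas the 28 members with no shared stretch had -0.07 ± 0.02. The 99 other genes of the array with a stretch of 40 or more had 1.25 ± 0.03. The part of shared sequence in the brightness was not tested.

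Genes in other blocks with probes identical to those of members had levels like theirs, as probes of the same sequence should. Both probes of gene 4 of block c626 were identical to probes of sbay_c582-g8.1, which had a ratio of -4.81 ± 0.22 and a log2 Cy5 of 1.07 ± 0.06, beside -4.74 and 1.08 for gene 4. One probe of gene 5 was identical to a probe of sbay_c644-g35.1, which had -3.58 ± 0.17 and 0.82 ± 0.06, beside -3.54 and 0.71 for gene 5. Since identical probes bind the same molecules, these levels cannot be assigned to one gene. Without genes 4 and 5, the 9 other low genes of block c626 had a median ratio of -3.75 ± 0.14 and a median log2 Cy5 of -0.21 ± 0.06, and all 11 had a median ratio of -3.78 ± 0.13.

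The spread over replicates was set beside that of other genes of like level. The median SD of a gene over the 4 arrays was 0.21 log2 units in block c626, 0.14 in block c578 and 0.11 over all genes, and it was 0.17 over the 558 genes at or below -2. An SD of at least 0.3 was found in 5 of 19 genes of block c626, or 26.3%, in 1 of 21 of block c578, in 6.2% of all genes and in 17.4% of the genes at or below -2. Among the 11 genes of block c626 at or below -2 the median SD was 0.19, and 2 of them, or 18.2%, had an SD of at least 0.3, which is about the share of low genes on the whole array. The 5 genes of block c626 with an SD of at least 0.3 were genes 7, 9, 10, 12 and 14. In genes 7, 10, 12 and 14 replicate 4 was the lowest, at -0.52, -0.56, -0.92 and -0.49 relative to the mean of the gene, and in gene 9 it was replicate 1.

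Replicate 2 was the highest array in 10 of the 19 genes of block c626 and replicate 4 the lowest in 10, whereas over all genes these shares were 31.4% and 31.5%. In block c578 replicate 4 was the highest in 9 of 21 genes, or 42.9%, and replicate 2 the lowest in 8, or 38.1%, near the 33.7% and 30.0% over all genes. Replicate 1 was the highest there in 8 genes, or 38.1%, above the 17.7% over all genes. Replicate 4 was the lowest there in 7 genes, or 33.3%, near the 31.5% over all genes. The spread was mostly in the RNA channel, where the median SD was 0.23 in block c626 against 0.05 in genomic DNA. Over all genes these were 0.13 and 0.06. Genes 9 and 13 of block c626 varied in genomic DNA too, with SDs of 0.31 and 0.16 in log2 Cy5. Without replicate 4 the median of block c626 was -2.14.

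**Figure D5:**
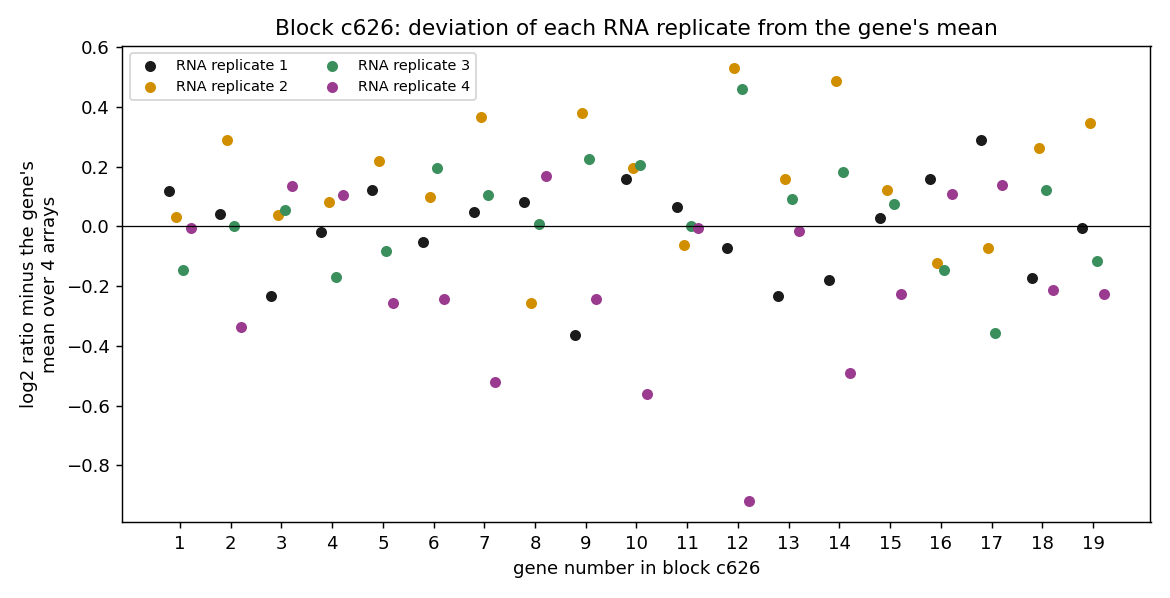
Difference between the log2 ratio on each array and the mean of the gene over 4 arrays (vertical axis) for the 19 genes of block c626 in order (horizontal axis), coloured by RNA replicate. Replicate 4 reaches -0.92 in gene 12 and lies lowest in 10 genes, and replicate 2 lies highest in 10.

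The calls of a limma fit across all 5482 genes are given for completeness, since the blocks were chosen on the same ratio. A gene was called where its Benjamini-Hochberg adjusted p was under 0.05 and its mean was 1 log2 unit or more away from that of the median gene. Below the median gene were 6 of 21 genes of block c578 and 15 of 19 of block c626, and 24.6% of all genes. The 6 were genes 1, 2, 8, 15, 16 and 18, and in block c626 all genes but 8, 12, 14 and 19 were called. Above it was 1 gene in each block, gene 13 of block c578 and gene 19 of block c626, and 25.8% of all genes. After the loess fit 6 genes of block c626 were called below, 5 of which, genes 1, 4, 5, 10 and 11, were among the 15. The other was gene 19 at -1.32, which the main fit called above. The rest of the 15, genes 2, 6, 7, 16 and 17 among them, were not called. With the processed signals neither gene 13 of block c578 nor gene 19 of block c626 was called above.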

How the data were processed

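Per the file headers the arrays were read with Agilent Feature Extraction 10.1.1.1, and the authors deposited scanner tables with linear spot intensity, local background and processed signals for each channel. They also deposited a table of log2 ratios without background subtraction or centring. Its row numbers are no probe name, so rows were named where values equalled those of 1 gene in the scanner tables within 1e-06 on at least 3 arrays. This held for 5470 of 5482 rows and all 40 members, and the table served as an alternative only.

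Local background medians were subtracted from spot medians, spots with software outlier marks were left out, log2 of Cy3 over Cy5 was taken, and the median of a gene's probes was set relative to the median gene, array by array. No probe of the blocks was set aside or saturated. For the calls, values were quantile normalized, centred and fitted with limma 3.58.1 in R 4.3.3 on an intercept. Python 3.11.15, numpy 2.4.6 and pandas 2.3.3 served for the rest. The fit was also run on simulated data in which most genes were set at the median gene. Those data differ from these arrays, so that run does not vouch for the calls. The number of arrays, 4, limits the precision. A p-value tests a gene's mean ratio against that of the median gene, and its error draws only on the spread between these samples. That error combines the gene's own spread with that of all genes. Probes were compared as sequences between genes, and order follows the gene number alone.

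Members and lists were chosen with earlier results of these data known. The rule for named genes took exceptions, genes between -1 and 0, the 3 lowest and highest of each block, genes at least 1 log2 unit off in Cy5, genes not well above the Cy3 background on every array, ends of low runs, and the 3 largest SDs and probe differences. The other members were named after their values were seen. Alternatives changed signals, background, dye fit, probes, outlier spots, normalization, the distance and the replicates used.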

Additional observations from a re-analysis of the deposited data

Results flagged for a closer look

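For 84 sets of 4 array values, the ratio and the Cy5 signal of each member and of each block median, the gap between the most extreme array and the next was set against the range. In 7 sets this gap was unusually wide, and chance alone gives about 1 in 20. In ratio, sbay_c626-g10.1 had -2.61 on replicate 4 against -1.89 to -1.85 on the others. The others in ratio were small: sbay_c578-g4.1 had -0.55 on replicate 2 against -0.46 to -0.45, and sbay_c578-g7.1 had -0.14 on replicate 3 against -0.29 to -0.26. In log2 Cy5, sbay_c626-g9.1 had -0.82 on replicate 1 against -0.26 to -0.15, and sbay_c578-g19.1 had 1.56 on replicate 4 against 1.76 to 1.77. Also in Cy5, sbay_c626-g18.1 had -0.44 on replicate 3 against -0.28 to -0.25, and sbay_c626-g7.1 had -0.51 on replicate 4 against -0.49 to -0.48.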

How the results depend on the processing

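The median ratio of each block stayed below the median gene under all alternatives run. That of block c578, -0.59, moved by more than its SD with the processed signals (-0.35), the loess fit (-0.39), Cy3 alone (-0.75) and without its 4 genes below -4 (-0.46), and ran from -0.62 to -0.55 with 1 replicate left out. That of block c626, -2.26, moved with the processed signals (-1.24), the loess fit (-0.41) and Cy3 alone (-2.73), and ran from -2.34 to -2.14 with 1 replicate left out. The median Cy5 of block c578, 0.09, turned to -0.13 with the processed signals and -0.061 after loess, and moved to 0.14 with normexp and 0.20 with the second probe. That of block c626, -0.17, moved to -0.76, -1.11, -0.24, -0.10 and -0.29 with the processed signals, loess, normexp, the first probe and the second probe. The Cy5 values after loess carry part of the change that the fit made to the ratio, and those of the processed signals may carry part of their dye fit. Genes of block c626 called below fell from 15 to 6 after loess. Members called above, 2, became 0 with the processed signals, 1 with normexp, 1 after loess, 5 with the first probe, 4 with the deposited table and 1 at a distance of 2 log2 units. Expressed exceptions, 5, became 3 with the second probe, and only 1 of the 7 after loess was among the 5. Of the 23 called members, 5 values of 345 reversed: sbay_c626-g3.1, sbay_c626-g13.1 and sbay_c626-g15.1 to 0.42, 0.43 and 0.68 after loess, and sbay_c626-g19.1 to -0.45 with the processed signals and -1.32 after loess. A further 25 lost the call and 315 kept it. Loess can take out differences in RNA as well as any between the dyes, and the cause of these changes was not tested. No paired analysis was possible because there was 1 group. Cy3 near the negative spots limits the order of the lowest genes.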
